A study of Mus musculus with 4 samples.

Results

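The genes described here are Fbxo45, the other parts of the ubiquitin ligase it forms (Mycbp2 and Skp1a), and 5 genes whose proteins have been reported as targets or binding partners of that ligase (Cdh2, Pawr, Fbxw7, Trp73 and Unc13a). They were selected by gene symbol, by a rule that uses no measured value but was proposed with earlier results of these data known, and all 8 were found among the 22565 genes of the deposited table. RNA was profiled in alveolar epithelial type II (AT2) cells, the cells of the alveolus that make surfactant, which had been sorted by flow cytometry from lungs of untreated 6-month-old mice. The groups were 2 libraries from wild-type (WT) mice and 2 libraries whose titles read KO. The genotype label of KO replicate 1 is Fbxo45 knockout and that of KO replicate 2 is Fbxo46 knockout, while the growth protocol names Fbxo45-cKO mice only. The driver of the deletion, the deleted exons and the cells in which deletion takes place are not stated in the labels, nor is it stated whether animals were pooled or whether replicates came from separate mice. Without that, p-values may reflect technical variation alone. Pairs of values are given with replicate 1 before replicate 2, and differences as KO-labelled minus WT.

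F-box proteins bring a chosen protein to a ubiquitin ligase, and most do so by binding SKP1, which links them to the cullin CUL1. FBXO45 is unusual: it binds SKP1 but works with MYCBP2 (also called PAM or PHR1), a very large ligase with its own catalytic domain, in place of a cullin, and it recognises targets through a SPRY domain. It is best known from neurons, where it acts in axon guidance and at synapses. In other cells it has been linked to turnover of the pro-apoptotic protein PAR-4 (gene Pawr), of p73 (Trp73) and of FBXW7, itself an F-box protein that controls growth regulators, while N-cadherin (Cdh2) and the synaptic vesicle priming factor MUNC13-1 (Unc13a) are bound or degraded in the nervous system. This regulation acts on protein, and only RNA was measured here.

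Promoters of 5 members, from RefSeq (GRCm38.p6), are shown first. The members fell into genes with a clear transcript signal and genes with almost none, and the windows let members of both kinds be compared. Of the 8 members, 5 are covered, with 8 start sites in all. The promoter set used held no window for Fbxo45 or Mycbp2, and Cdh2 is not reported here. Each window is the 250 bases before a start, on the gene's strand, and capitals mark GGGCGG, the GC box, on either strand, and TGACGTCA, the cyclic AMP response element.
Skp1a (RefSeq symbol Skp1), chr11:52231745-52231994, plus strand: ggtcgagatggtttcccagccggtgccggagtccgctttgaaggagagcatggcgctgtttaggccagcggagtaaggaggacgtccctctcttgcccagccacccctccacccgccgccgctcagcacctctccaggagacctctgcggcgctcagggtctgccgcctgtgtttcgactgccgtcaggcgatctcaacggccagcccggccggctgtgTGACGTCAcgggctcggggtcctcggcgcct
Pawr, chr10:108331939-108332188, plus strand: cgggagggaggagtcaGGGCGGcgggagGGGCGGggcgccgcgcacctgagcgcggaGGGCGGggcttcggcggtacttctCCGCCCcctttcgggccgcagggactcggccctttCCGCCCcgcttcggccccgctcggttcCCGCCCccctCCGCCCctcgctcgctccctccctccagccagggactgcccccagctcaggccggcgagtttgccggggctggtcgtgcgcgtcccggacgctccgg
Fbxw7, first start, chr3:84815327-84815576, plus strand: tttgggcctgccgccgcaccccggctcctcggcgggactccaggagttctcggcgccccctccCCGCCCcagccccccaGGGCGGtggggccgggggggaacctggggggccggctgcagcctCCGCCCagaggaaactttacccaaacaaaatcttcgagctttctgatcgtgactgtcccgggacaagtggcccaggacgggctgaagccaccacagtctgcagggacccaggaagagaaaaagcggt
Trp73, second window in the table, chr4:154139876-154140125, minus strand: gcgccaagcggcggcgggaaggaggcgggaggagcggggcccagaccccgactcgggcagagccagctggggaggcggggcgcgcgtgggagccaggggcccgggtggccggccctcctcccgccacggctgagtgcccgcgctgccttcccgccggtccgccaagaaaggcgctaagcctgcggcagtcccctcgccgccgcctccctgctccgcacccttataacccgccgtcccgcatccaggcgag
Unc13a, chr8:71671758-71672007, minus strand: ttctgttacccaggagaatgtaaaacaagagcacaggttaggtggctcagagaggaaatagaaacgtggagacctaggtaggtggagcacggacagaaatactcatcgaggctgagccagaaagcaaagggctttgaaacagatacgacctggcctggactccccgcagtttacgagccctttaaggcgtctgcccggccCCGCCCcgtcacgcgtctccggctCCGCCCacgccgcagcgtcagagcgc
The Skp1a window held TGACGTCA once, starting 31 bases before the start, a motif present in 1.55% of all 32851 windows of this length. GGGCGG, searched on both strands, was present in 32.7% of all windows. It occurred 7 times in the Pawr window, 3 times at the first Fbxw7 start and 2 times in the Unc13a window, and it was not in the Trp73 window shown. Of the windows not shown, the other Trp73 window held it once, 16 bases before the start, the third Fbxw7 window held it 2 times, and the second Fbxw7 window did not hold it. Also searched on both strands, and in none of the 8 windows, were TATAAA (the TATA box, in 12.4% of all windows), CCAAT (the CCAAT box, 33.8%), CACGTG (the E-box, 6.02%) and CCGGAA (an ETS core, 12.0%). No 2 kinds of motif overlapped, since no window held more than 1 kind. The windows of Skp1a, Pawr and Fbxw7 shown above held 24, 34 and 17 CG dinucleotides, against a median of 6 over all windows. Those of Trp73 and Unc13a held 31 and 18, so in the windows shown these members with little transcript were not set apart by this count. Cdh2, Fbxo45 and Mycbp2 were not part of this comparison. The other 2 Fbxw7 starts held 1 and 6 CG dinucleotides, and the other Trp73 start held 6. The comparison thus depends on the window shown, and which starts are used in AT2 cells was not tested.

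Recovered fragments, the whole fragments behind the deposited counts, numbered between 4167115 and 9507421 per library. On the AT2 markers, all 10 of 10 were above 1 FPKM in every library, with summed levels of 130816 and 124525 FPKM in WT, against 82294 and 116910 FPKM under the KO label. Most of each sum was Sftpc, at 101544 and 94984 FPKM in WT, against 54458 and 87684 FPKM under the KO label. Of the 10 markers, 5 had a higher and 5 a lower mean under the KO label (median log2 difference 0.005). Both KO-labelled values lay below both WT values for 4 of the 10, and above them for 0. Over all tested genes these shares were 15.1% and 20.0%. FPKM scales fragments to the transcript length assigned to a gene and to library size, so comparisons between genes rest on that length. Its library scaling was the authors' and differed from the fragment total used for CPM below. KO replicate 1 stood apart by fast skeletal muscle genes: the 8 markers summed to 1059 FPKM there and to at most 8.95 FPKM elsewhere, with Myl1 at 186 FPKM. The part of this signal in the results was not tested, and the members' differences are also given with each KO-labelled library alone. With limma on log2(FPKM + 1), 0 of 11055 tested genes (0.0%) had an adjusted p under 0.05, and 4.84% had an unadjusted p under 0.05. edgeR on the recovered fragments called 0 of 11705 (3.18% at an unadjusted p under 0.05), DESeq2 called 7 of 15326 (0.0457%, with 1.82% unadjusted), and limma without a filter called 0 of 15428 (4.69% unadjusted). Without KO replicate 2 limma called 134 genes, and without WT replicate 2 it called 3, none of them a member. No member and no gene of the lists below was called by limma, edgeR or DESeq2 with all 4 libraries.

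Levels of the 8 members spanned a wide range in AT2 cells. Skp1a was the highest, above 98.4% of all genes in every library, followed by Mycbp2, Pawr, Fbxw7 and Fbxo45. Pawr lay above Fbxw7 in all 4 libraries, while Fbxw7 and Fbxo45 swapped order between libraries, which left them within their spread. Unc13a was near 1 FPKM or below it, and Trp73 and Cdh2 were listed at 0 in 3 of the 4 libraries. In these sorted cells, a lower level from fewer expressing cells and one from less RNA per cell cannot be told apart.

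**Figure D1:**
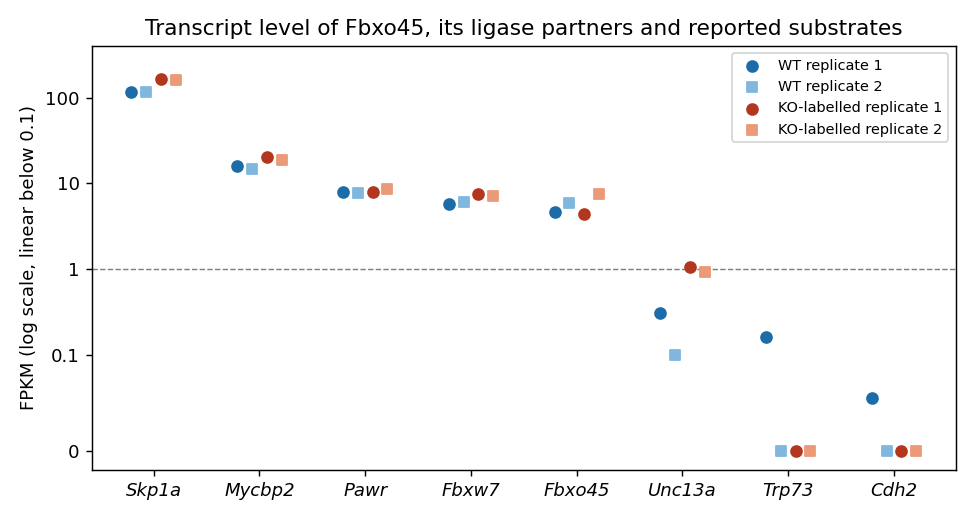
FPKM of each member (y axis, log scale and linear below 0.1) in the 2 WT (blue) and 2 KO-labelled (red) libraries, 1 point per library, with genes ordered by mean level and the 1 FPKM filter dashed. Skp1a stands above 115 FPKM in every library, 4 further members lie between 4.41 and 20.3 FPKM, and Trp73 and Cdh2 are at 0 in 3 libraries each.

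Fbxo45 (ENSMUSG00000035764), the targeted gene, lies on the minus strand of chromosome 16 from 32230112 to 32247158 (GENCODE M21, GRCm38, the build also called mm10) and has a single coding transcript of 4179 bases there. It was measured at 4.60 and 5.91 FPKM in WT, against 4.41 and 7.58 FPKM under the KO label. The KO-labelled libraries were thus the lowest and the highest of the 4, and the groups overlapped. Behind these values stood 93 and 235 recovered fragments in WT and 214 and 249 under the KO label. Scaled to each library's total of recovered fragments, as CPM, they were 22.3 (exact binomial 95% interval 18.01 to 27.3) and 28.7 (25.1 to 32.6) in WT. Under the KO label they were 22.5 (19.6 to 25.7) and 35.2 (31.0 to 39.9), intervals that cover counting error only. The log2 difference, KO-labelled minus WT, was 0.13 (limma 95% interval -0.68 to 0.94, adjusted p = 0.983). With KO replicate 1 alone against WT it was -0.20, and with KO replicate 2 alone it was 0.46. The deposited count per FPKM, which follows the transcript length assigned to a gene, lay between 35.0 and 35.8 for Fbxo45 in the 4 libraries. With 1 value for the whole gene, loss of some exons from an otherwise stable RNA would not be visible.

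The 3 genes whose profile over the 4 libraries lay nearest to that of Fbxo45, among 4887 tested genes that varied at least as much, were Fbxo25, Zdhhc20 and Slc35b4. Their distances, on centred log2(FPKM + 1) values, were 0.0517, 0.0610 and 0.0641. Fbxo25, another F-box gene, was at 5.54 and 7.32 FPKM in WT, against 5.29 and 9.38 FPKM under the KO label. With 4 libraries a profile has few values to match, and 381 of the 4887 genes lay within a looser distance of 0.3. Fbxo46, named by the genotype label of KO replicate 2, was at 4.13 and 3.79 FPKM in WT, against 3.82 and 4.80 FPKM under the KO label. Its highest value was thus in the library labelled as its knockout, and it differed by 0.09 on the log2 scale (limma adjusted p = 0.983).

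Mycbp2 (ENSMUSG00000033004; chromosome 14, 103113411 to 103346814, minus strand) encodes the ligase that FBXO45 joins. It was at 15.8 and 14.7 FPKM in WT, against 20.3 and 18.5 FPKM under the KO label. Both KO-labelled libraries lay above both WT libraries. This also held in CPM, at 203 and 203 in WT against 259 (exact binomial 95% interval 249 to 270) and 216 (206 to 227), although the interval of KO replicate 2 overlapped those of both WT libraries. The group values were 15.3 ± 0.728 and 19.4 ± 1.24 FPKM (SD, n = 2 each), a log2 difference of 0.33 (limma 95% interval -0.19 to 0.85, adjusted p = 0.948). With KO replicate 1 or 2 alone it was 0.39 or 0.27. The ratio of Mycbp2 to Fbxo45 FPKM was 3.43 and 2.50 in WT, against 4.61 and 2.45 under the KO label, and it overlapped between groups.

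Skp1a (ENSMUSG00000036309; chromosome 11, 52231995 to 52246858, plus strand) encodes SKP1, the adaptor shared by SCF (SKP1, cullin, F-box) ligases and the FBXO45 ligase. It was at 118 and 116 FPKM in WT, against 165 and 161 FPKM under the KO label. The groups did not overlap and each was tight, at 117 ± 1.29 and 163 ± 3.05 FPKM (SD, n = 2 each). The log2 difference was 0.48 (limma 95% interval 0.03 to 0.93, unadjusted p = 0.0395, adjusted p = 0.948), the smallest p of the members tested. With KO replicate 1 or 2 alone the difference was 0.50 or 0.46. In CPM the picture was narrower: 180.5 and 176.6 in WT, against 183.6 (exact binomial 95% interval 175.1 to 192.5) and 227.6 (216.6 to 239.0) under the KO label. On recovered fragments edgeR gave a log2 difference of 0.20 (adjusted p = 0.999). The gap between the 2 scales lay mainly in KO replicate 1, where the deposited count per FPKM of Skp1a was 7.80, against 11.1 in both WT libraries and 10.6 in the other KO-labelled library. Of 8900 genes with at least 30 fragments in every library, 76.8% had a smaller spread of this ratio than Skp1a. GENCODE M21 lists 3 coding transcripts of Skp1a, from 370 to 1754 bases, and in the table it lies in a locus that covers 19 genes. Because the 2 scales differ for Skp1a, the size of its FPKM difference is uncertain. Whether the shift in KO replicate 1 is one of transcripts or of length assignment was not tested.

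**Figure D2:**
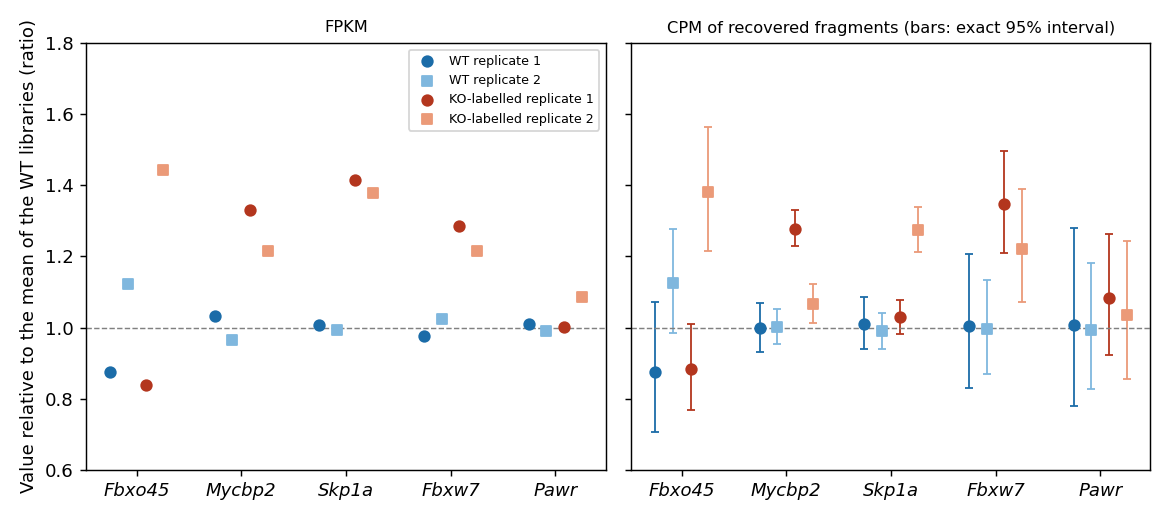
Values of the 5 tested members relative to the mean of the WT libraries (y axis, ratio), in FPKM (left) and CPM (right, with exact binomial 95% intervals), 1 point per library. Mycbp2, Skp1a and Fbxw7 lie above the WT libraries in both KO-labelled libraries on the left, while on the right Skp1a in KO replicate 1 lies at the WT level.

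**Figure D3:**
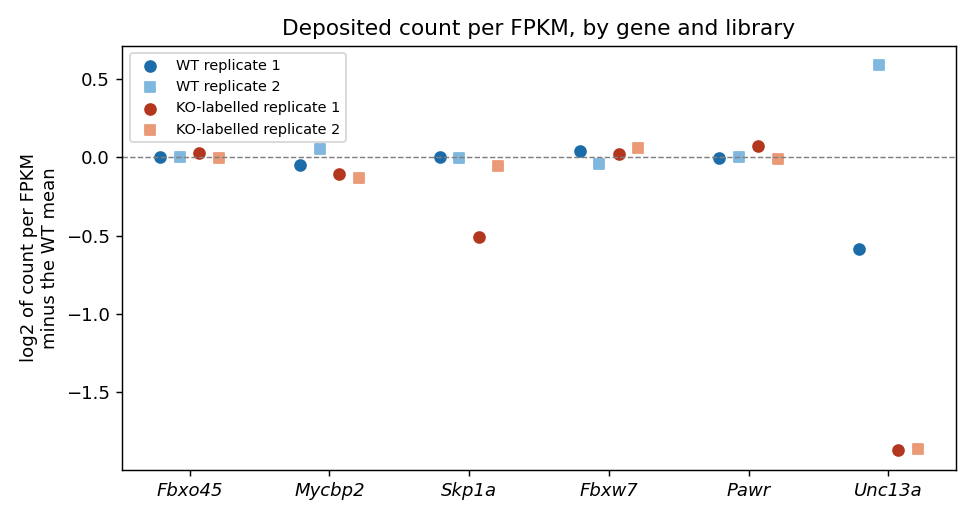
The log2 deposited count per FPKM of 6 members minus its WT mean (y axis), 1 point per library. Fbxo45, Mycbp2, Fbxw7 and Pawr lie near 0 in every library, Skp1a is low in KO replicate 1 only, and Unc13a is spread over all libraries and lowest in the KO-labelled ones.

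Fbxw7 (ENSMUSG00000028086; chromosome 3, 84815268 to 84979198, plus strand) encodes the substrate receptor of an SCF ligase that marks cyclin E, NOTCH and other growth regulators for breakdown. It was at 5.74 and 6.03 FPKM in WT, against 7.57 and 7.16 FPKM under the KO label. Both KO-labelled values were above both WT values. The same order held in CPM, at 27.4 (exact binomial 95% interval 22.6 to 32.9) and 27.1 (23.6 to 30.9) in WT and at 36.7 (33.0 to 40.8) and 33.3 (29.1 to 37.8) under the KO label. The log2 difference was 0.28 (limma 95% interval -0.32 to 0.88, adjusted p = 0.948), and 0.36 with edgeR on recovered fragments (adjusted p = 0.999). With KO replicate 1 or 2 alone the limma difference was 0.32 or 0.25. Fbxw7 is known to make isoforms from separate starts that go to different parts of the cell, which 1 value per gene does not separate. Its locus in the table covers 7 genes.

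Pawr (ENSMUSG00000035873; chromosome 10, 108332121 to 108414240, plus strand) encodes PAR-4, a pro-apoptotic protein with a leucine zipper. It was the steadiest member, at 7.95 and 7.81 FPKM in WT, against 7.89 and 8.56 FPKM under the KO label. The groups overlapped in FPKM. In CPM it was at 15.8 and 15.6 in WT, against 17.04 and 16.3 under the KO label, which is above both WT values by less than the counting error. The log2 difference was 0.05 (limma 95% interval -0.52 to 0.63, adjusted p = 0.988), an interval that still holds differences of 0.5 in either direction.

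The other 3 members did not reach 1 FPKM in at least 2 libraries and were below the limma filter. Cdh2 (ENSMUSG00000024304; chromosome 18, 16588877 to 16809246, minus strand), which encodes N-cadherin, a cadherin of nerve, heart and mesenchymal cells, had 1 fragment (0.0549 FPKM) in WT replicate 1 and 0 in the other 3 libraries. A count of 0 allows up to 0.366 CPM in WT replicate 2, 0.316 CPM in KO replicate 1 and 0.425 CPM in KO replicate 2, taken as 3 fragments. The exact binomial 95% intervals, used for the other CPM values, reach 0.450, 0.388 and 0.522 CPM there. Trp73 (ENSMUSG00000029026; chromosome 4, 154056253 to 154140208, minus strand) encodes p73, a p53 relative that also drives the multiciliated cell programme. It had 4 fragments in WT replicate 1, or 0.163 FPKM and 0.960 CPM (exact binomial 95% interval 0.262 to 2.46), and 0 in the other 3 libraries. Neither gene can be compared between groups at this depth.

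Unc13a (ENSMUSG00000034799; chromosome 8, 71624417 to 71671757, minus strand) was low in every library, at 0.310 and 0.0997 FPKM in WT, against 1.06 and 0.920 FPKM under the KO label. The groups did not overlap in FPKM. These levels rest on 7 and 10 fragments in WT and 23 and 14 under the KO label. In CPM that was 1.68 (exact binomial 95% interval 0.675 to 3.46) and 1.22 (0.585 to 2.24) against 2.42 (1.53 to 3.63) and 1.98 (1.08 to 3.32), intervals that all overlap. The deposited count per FPKM differed widely, at 39.2 and 88.6 in WT and 16.1 and 16.2 under the KO label. On the log2 scale with no pseudocount, the KO-labelled minus WT difference was 2.49 in FPKM, 0.62 in deposited counts and -1.87 in count per FPKM. Without the filter, limma put the log2 difference at 0.73 (unadjusted p = 0.0106, adjusted p = 0.900), and edgeR gave 0.62 (unadjusted p = 0.422). GENCODE M21 lists 4 coding transcripts of Unc13a, from 721 to 10255 bases.

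Among the cell types in which these 3 genes are best known, neuronal and multiciliated markers were mostly low. Several fibroblast markers were above 1 FPKM in every library. Of 10 neuroendocrine and neuronal markers, 8 were under 1 FPKM in all libraries, Chga and Elavl4 were listed at 0 throughout, and the summed level was 1.95 to 3.84 FPKM, led by Syp at 1.56 to 1.83 FPKM. By library the sum was 2.47 and 3.84 FPKM in WT, against 2.86 and 1.95 FPKM under the KO label. Of 9 multiciliated markers in the table, 7 were under 1 FPKM in all libraries; Mcidas was at most 0.509 FPKM and Foxj1 at most 0.487 FPKM, both named after their values were seen. Their sum was 16.7 to 24.1 FPKM, nearly all of it from Tppp3 at 16.2 to 22.0 FPKM. Fibroblast and smooth muscle markers summed to 39.6 and 15.9 FPKM in WT, against 41.0 and 37.2 FPKM under the KO label. Of these 10 markers, 4 were under 1 FPKM in all libraries. Dcn, the highest of them by mean level, was at 8.73 and 3.80 against 13.9 and 11.2 FPKM. Mesothelial markers summed to 9.45 to 17.4 FPKM, nearly all of it Krt19, which epithelial cells also express, at 8.41 to 16.4 FPKM. Endothelial markers summed to at most 2.2 FPKM (Pecam1 at most 0.829), and the 4 macrophage markers to 7.13 to 13.6 FPKM, of which Cd68 made up 7.08 to 13.6 FPKM, with Marco listed at 0. The part of these cell types in the members' values was not tested.

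Of the 5 members tested, all had a positive log2 difference, with a median of 0.28, against 54.1% positive and a median of 0.03 over all 11055 genes. None passed limma's adjusted threshold, and 1 (Skp1a) had an unadjusted p under 0.05. Both KO-labelled values lay above both WT values in FPKM for 3 of the 5, Mycbp2, Skp1a and Fbxw7, and for 20.0% of all tested genes. No tested member lay below WT in this way. In CPM this held for 4 of the 5, Pawr added, and for 16.4% of all tested genes. In each of the 4 the counting interval of at least 1 KO-labelled library overlapped that of a WT library. CPM is scaled to the fragment total alone. Of that total Sftpc made up 7.60% and 7.18% in WT, against 4.78% and 6.18% under the KO label. The part of Sftpc in the CPM order was not tested. Groups that do not overlap in either direction made up 35.1% of all tested genes in FPKM and 33.5% in CPM, with the KO-labelled pair below the WT pair for 15.1% in FPKM. With 2 libraries against 2, a permutation test of a single gene cannot give a two-sided p below 0.333.

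Fbxo45 ranked near the middle of the F-box genes in AT2 cells, and in the lower part of those at 1 FPKM or more. Of 82 F-box family genes in the table, between 52 and 57 were at 1 FPKM or more per library. Fbxo45 ranked 40th and 37th in WT, 39th in KO replicate 1 and 30th in KO replicate 2, and made up between 0.655% and 0.981% of the family's summed FPKM. The 2 highest by mean level were Fbxl5, the iron-sensing F-box protein, at 58.2 and 66.1 FPKM in WT, against 44.2 and 105 FPKM under the KO label, and Kdm2a, a histone demethylase that carries an F-box. Kdm2a was at 30.2 and 39.3 against 72.5 and 32.1 FPKM. In CPM it was at 196 and 183 in WT, against 204 and 171 under the KO label. Its count per FPKM was 19.8 in KO replicate 1, against 47.0 and 33.8 in WT and 40.0 in KO replicate 2. Of the 55 tested, 27 had a higher and 28 a lower mean in the KO-labelled libraries, with a median log2 difference of -0.01, and 0 passed limma's threshold (3 at an unadjusted p under 0.05). Skp1a FPKM came to 0.178 and 0.170 of the summed F-box FPKM in WT and to 0.246 and 0.208 under the KO label. That ratio did not overlap between groups, and it carries the same uncertainty as the Skp1a FPKM.

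**Figure D4:**
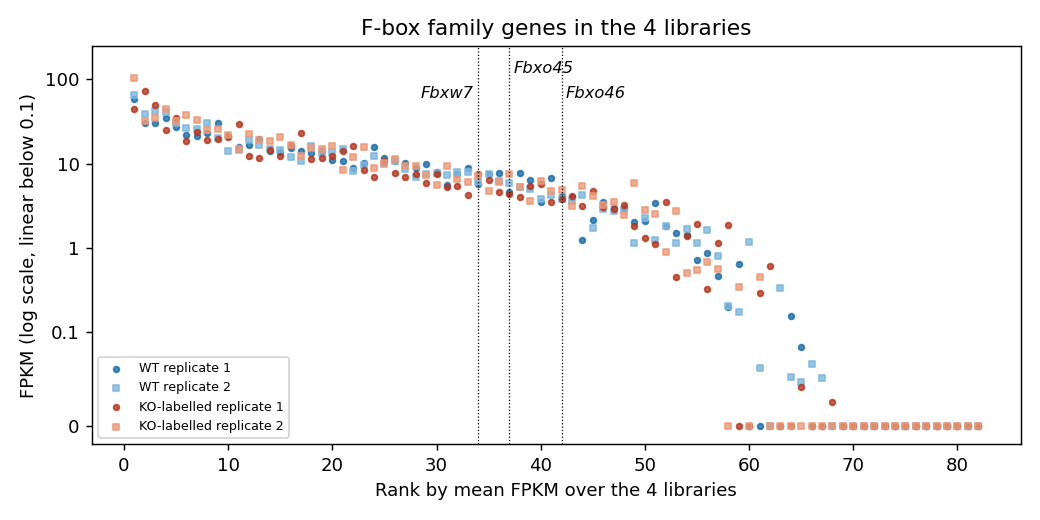
FPKM of the 82 F-box family genes (y axis, log scale and linear below 0.1) against their rank by mean level, 1 point per library, with Fbxw7, Fbxo45 and Fbxo46 marked by dotted lines at ranks 34, 37 and 42. The 3 genes lie near the middle of all 82 and in the lower part of those at 1 FPKM or more.

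Genes of the SCF core, the NEDD8 conjugation steps that switch cullins on and the COP9 signalosome that switches them off were divided in direction. Of 27 tested of 28 listed, 16 had a higher and 11 a lower mean in the KO-labelled libraries (median log2 difference 0.12), and 0 passed limma's threshold (3 at an unadjusted p under 0.05). Cops2, a COP9 signalosome subunit, was at 24.5 and 27.4 FPKM in WT, against 51.3 and 36.6 FPKM under the KO label (log2 difference 0.72, SE 0.241). Arih1, a ligase that acts on the substrates of active cullins, was at 37.2 and 42.7 against 52.6 and 65.2 FPKM. On recovered fragments, edgeR log2 differences were smaller, at 0.38 for Cops2 and 0.13 for Arih1, whose groups overlapped in CPM. Ube2d3, a ubiquitin-conjugating enzyme and the highest of the list, stood the other way, at 68.7 and 67.0 FPKM in WT, against 47.4 and 48.5 FPKM under the KO label. This was a log2 difference of -0.49 (limma adjusted p = 0.948), or -0.59 by edgeR (adjusted p = 0.999). Cul1, the cullin of SCF ligases and named after its values were seen, was at 37.0 and 39.1 against 58.7 and 45.3 FPKM, and 0.12 by edgeR.

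Other reported partners and substrates of FBXO45 or MYCBP2 were spread evenly. Of 12 listed, 8 were tested, 4 higher and 4 lower, and the groups overlapped in all 8. The median log2 difference was -0.09, and 0 passed limma's threshold (0 at an unadjusted p under 0.05). Mycbp, which encodes a transcriptional coactivator, was at 7.26 and 10.2 FPKM in WT, against 3.10 and 7.91 FPKM under the KO label. Rae1, an mRNA export factor that binds MYCBP2, was at 11.6 and 14.2 against 15.5 and 12.8 FPKM. Tsc2, an inhibitor of mTOR complex 1 and the highest of the list, was at 24.5 and 22.1 against 25.7 and 21.6 FPKM, and Zeb2, a repressor of epithelial genes, was at 3.58 and 1.29 against 3.16 and 2.88 FPKM. The 4 below the filter, named after their values were seen, were Nmnat2, an axonal NAD enzyme that this ligase degrades in neurons, at most at 0.228 FPKM, and Snai2, Twist1 and Igf2bp1 at most at 0.463, 0.138 and 0.0245 FPKM.

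Reported FBXW7 substrates included lower means more often than higher ones, 10 against 5 of 15 tested (19 listed), with a median log2 difference of -0.21. None passed limma's threshold, with 2 at an unadjusted p under 0.05. Klf2, a transcription factor best known from endothelium and T cells, was at 3.81 and 2.90 FPKM in WT, against 1.01 and 1.25 FPKM under the KO label (log2 difference -1.02, SE 0.323, limma adjusted p = 0.948). Notch1, a receptor, was at 33.7 and 20.9 against 12.9 and 17.7 FPKM, and Cebpa, a transcription factor of mature AT2 cells and the highest of the list, was at 128 and 118 against 64.5 and 116 FPKM. In these 3, named for a small p or a high level, the KO-labelled libraries lay below WT, with KO replicate 2 close to WT for Cebpa. Over the whole list the KO-labelled pair lay below the WT pair in FPKM for 6 of 15 genes and above it for 5, where 15.1% and 20.0% of all tested genes did so. Tgif1, a corepressor, stood the other way, at 16.6 and 12.8 against 23.8 and 20.1 FPKM.

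Among classical cadherins and catenins, the adhesion partners of Cdh2, E-cadherin had the highest level of the cadherins. Its gene Cdh1, named after its values were seen, was at 183 and 170 FPKM in WT, against 256 and 172 FPKM under the KO label, and Cdh3 was listed at 0. Of 7 tested of 9 in the table, 5 had a higher and 2 a lower mean (median log2 difference 0.25), and 0 passed limma's threshold (1 at an unadjusted p under 0.05). Ctnnb1, which encodes beta-catenin, was at 363 and 346 against 679 and 452 FPKM. It differed by 0.64 on the log2 scale (limma adjusted p = 0.948), but by 0.10 with edgeR on recovered fragments. In CPM it was at 1404 and 1333 in WT, against 1314 and 1629 under the KO label, so KO replicate 1 was the highest library in FPKM and the lowest in CPM. Its count per FPKM was 13.6 there, against 28.0 and 27.9 in WT and 27.1 in KO replicate 2. In FPKM, KO replicate 1 alone against WT gave 0.94 (limma adjusted p = 0.0384), and KO replicate 2 alone gave 0.35 (limma adjusted p = 0.206). Ctnnd1, which encodes p120-catenin, was at 67.7 and 68.0 against 91.2 and 86.9 FPKM, a log2 difference of 0.39, but 0.10 with edgeR, and its groups overlapped in CPM. Cdh11, a mesenchymal cadherin, was at 3.87 and 1.15 against 3.0 and 4.19 FPKM.

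For partners of PAR-4 and p73, 6 of 10 tested of 12 listed had a higher mean and 4 a lower one, with a median log2 difference of 0.11, and 0 passed limma's threshold (0 at an unadjusted p under 0.05). Hspa5, the endoplasmic reticulum chaperone that also binds secreted PAR-4 at the cell surface, was at 193 and 204 FPKM in WT, against 263 and 237 FPKM under the KO label. Prkci, an atypical protein kinase C of the kind PAR-4 inhibits, was at 42.2 and 45.1 against 59.6 and 51.2 FPKM. In CPM its groups overlapped, at 193 and 195 against 186 and 224, and the log2 difference was 0.33 with limma but 0.07 with edgeR. Dapk3, a death-associated kinase that binds PAR-4, was at 11.0 and 7.66 against 7.18 and 5.79 FPKM, and its groups overlapped in CPM. Of the p53 family, Trp53 was at 6.36 and 6.36 FPKM in WT, against 6.91 and 5.62 FPKM under the KO label, and Trp63 was at most 0.0876 FPKM; both were named after their values were seen.

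In the UNC13 family, Unc13b and Unc13d were above 1 FPKM in every library. They and Unc13c were named after their values were seen. Unc13b was at 29.4 and 27.9 FPKM in WT, against 29.0 and 39.5 FPKM under the KO label, Unc13d at 18.5 and 9.47 against 9.65 and 14.99 FPKM, and Unc13c was listed at 0. Of 14 tested genes of regulated exocytosis (20 in the table), 10 had a higher and 4 a lower mean (median log2 difference 0.12), and 0 passed limma's threshold (1 at an unadjusted p under 0.05). Stx4a, a plasma membrane syntaxin, was at 8.13 and 9.57 FPKM in WT, against 16.4 and 14.9 FPKM under the KO label (log2 difference 0.76, SE 0.229, limma adjusted p = 0.948). In CPM its groups overlapped, at 7.20 and 11.1 in WT against 19.1 and 9.06, and edgeR gave 0.60 (unadjusted p = 0.237). Stx2, another syntaxin, was at 1.13 and 0.925 against 2.09 and 2.22 FPKM. Vamp8, a vesicle SNARE and the highest of the list, was at 227 and 211 against 353 and 227 FPKM, with KO replicate 2 at the WT level.

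**Figure D5:**
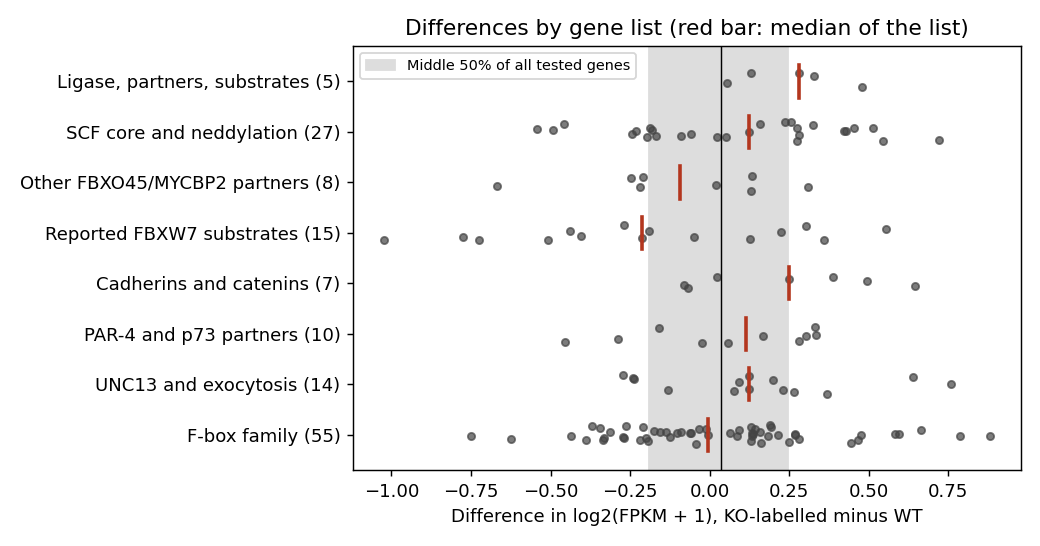
Differences in log2(FPKM + 1), KO-labelled minus WT (x axis), of the tested genes of each list, 1 point per gene, with list medians as red bars, the median of all 11055 tested genes as a black line and the middle 50% of those genes shaded. The list medians run from -0.21 for FBXW7 substrates to 0.28 for the ligase, its partners and substrates, and most points of every list lie between -0.8 and 0.8.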

How the data were processed

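The 4 libraries (2 WT, 2 KO by title) were compared by title group. Tools listed, with no roles or settings, are cutadapt (1.9.3), HISAT2 (2.0.4), Cuffdiff (2.2.1) and Cufflinks, and the build is mm10, per the submitters' processing notes. FPKM values were used as the authors deposited them. The deposited counts are estimated counts: in each library 1 constant divides 90.9% to 92.6% of the positive values into whole numbers within 0.05, and these recovered fragments, rounded, gave CPM, with exact binomial intervals.

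The test was limma with a mean-variance trend (3.58.1, under R 4.3.3) on log2(FPKM + 1) for genes at 1 FPKM or more in at least 2 libraries, with Benjamini-Hochberg adjustment over all genes tested. This scale understates differences of low genes. The design was written for FPKM, so edgeR (4.0.16, quasi-likelihood, TMM) and DESeq2 (1.42.0) on recovered fragments were alternatives. On simulated data, limma called 2% of genes changed 2-fold and 84% of those changed 4-fold (11074 genes tested). Counts were drawn with the same dispersion for every gene and a fixed length per gene, and genes of few fragments were left unchanged. These shares may thus be too high for the real libraries.

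The members and lists were chosen with earlier results of these data known. By rule the text names the members, Fbxo46, the 3 smallest p and the highest level per list, 3 F-box genes by level, 3 nearest profiles, and the top marker and markers at 0 per list; of these, 1 F-box gene is not reported here. Within the lists, 5 symbols were not matched and are not used here. In GENCODE M21, 0% of the 100-base stretches of the members' transcripts occurred in another gene's transcripts, as exact matches on the transcript strand.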

Additional observations from a re-analysis of the deposited data

How the results depend on the processing

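No member was called under any of 17 alternatives, and 2 of the 85 values of the 5 tested members turned direction, both for Fbxo45 with a library left out. Of 722 values for the named genes, 684 kept direction and side of the threshold. Over the limma alternatives with all 4 libraries (pseudocount, filter, scaling, trend, replicate block) 0 genes were called. edgeR without a filter called 5 genes, edgeR with the replicate block 2 and DESeq2 7. Leaving out each library in turn gave 0 to 134 genes called, with 134 without KO replicate 2, 3 without WT replicate 2 and 0 otherwise; the lone library was then assumed to vary like the other pair. Ctnnb1 (0.94) and Myl1 (7.12) passed without KO replicate 2 only. Replicate numbers are not stated to pair the libraries. Deviations of same-numbered libraries correlated at 0.026 across 11055 genes, which cannot show whether they were handled together. With the replicate block the limma count was 0. The cause of the reversals listed next was not tested. With edgeR, edgeR without a filter, edgeR with the replicate block and DESeq2, in that order, log2 differences were -0.030, -0.0296, -0.038 and -0.0255 for Rae1, -0.023, -0.0221, -0.028 and -0.018 for Kdm2a, and -0.058, -0.059, -0.080 and -0.051 for Slc35b4. Tsc2 was at -0.017 with median-of-ratios scaling and -0.063 with quantile normalization, and Trp53 at 0.026 with equal FPKM totals. With 1 library left out, the lowest and highest log2 differences were -0.20 and 0.46 for Fbxo45, -0.042 and 0.23 for Fbxo46, -0.19 and 0.81 for Zeb2, -0.0052 and 0.27 for Rae1, -0.10 and 0.14 for Tsc2, -0.097 and 1.09 for Cdh11, -0.33 and 0.084 for Tppp3, -0.69 and 0.16 for Krt19, -0.045 and 0.80 for Cd68, -0.48 and 0.75 for Fbxl5, -0.10 and 1.05 for Kdm2a, -0.58 and 0.32 for Unc13d, -0.035 and 0.54 for Cdh1, -0.15 and 0.10 for Trp53, -0.23 and 0.49 for Fbxo25, -0.21 and 0.48 for Zdhhc20 and -0.14 and 0.51 for Slc35b4. With 4167115 fragments in the shallowest library, genes of few fragments such as Unc13a, Trp73 and Cdh2 are limited by depth.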
